A study of Mus musculus with 10 samples.

Results

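Cardiac mesoderm (CM) made from mouse embryonic stem cells (mESCs) was compared with and without expression of Foxa2, across all genes, using 6 of the 10 RNA sequencing samples of the series: 3 of Foxa2+ CM and 3 of Foxa2- CM. The samples were chosen by the cell type in their labels. Every group came from a single mESC line, Foxa2-hCD4, in which the Foxa2 locus drives a truncated human CD4 protein. An antibody against human CD4 therefore sorts living cells by activity of that locus. For CM, cultures were induced with Activin A, BMP4 and VEGF, and cells positive for both Kdr (also called Flk1) and Pdgfra were sorted into hCD4-positive and hCD4-negative fractions. The remaining samples, used here for levels alone, were 2 of Foxa2+ endoderm, from cultures given a higher dose of Activin A, and 2 of cells labelled Flk1+ high, a haematopoietic mesoderm from the cardiac cultures. The labels do not state that the samples of a group came from separate cultures, so p-values measure the spread between these samples.

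Foxa2 is a forkhead transcription factor that opens chromatin and is best known for its roles in endoderm, node and notochord. During gastrulation, mesoderm leaves the primitive streak under Wnt, Nodal, BMP and FGF signals, and cells that leave the streak at different times and positions form cardiac, lateral plate, paraxial and extraembryonic mesoderm. Cells are placed and told apart by the transcription factors they carry, by the receptors that let them read a signal, and by the ligands, inhibitors and matrix that they secrete. These classes are described in that order, for genes outside those that the study displayed.

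Counts on genes totalled between 12616900 and 17470126 in the 6 CM samples, at which 3 counts are between 0.172 and 0.238 CPM before TMM scaling. CPM are counts scaled to a common library size, and all other levels also carry edgeR's TMM factors. In Foxa2- CM, replicate 3 stood apart, with a chi-square of 13.2 and 11.4 (per degree of freedom, over genes) against replicates 1 and 2, which differed from each other by 3.72. In Foxa2+ CM the values were 5.51 between replicates 1 and 2, 10.5 between 1 and 3, and 5.03 between 2 and 3. Foxa2 itself, which the sort selects, stood at 20.5, 16.3 and 3.55 CPM in Foxa2+ CM replicates 1, 2 and 3, and at 2.55, 0.886 and 0.930 CPM in the Foxa2- CM replicates. Replicate 3 of the Foxa2+ CM group thus had the least Foxa2 of its group, though still more than any Foxa2- CM sample. Kdr, present on both sorted populations, did not pass the test (adjusted p = 0.28), and Pdgfra was lower by less than 1.5-fold in Foxa2+ CM (log2 fold change -0.37, with an adjusted p of 0.0131).

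The comparison used edgeR's quasi-likelihood test on the counts, with the replicate number in the labels as a block, so that each Foxa2+ CM sample is set against the Foxa2- CM sample of its own number. The log2 fold change (log2FC) of Foxa2+ CM over Foxa2- CM is given ± its standard error. A gene is called raised or lowered in Foxa2+ CM here when its Benjamini-Hochberg adjusted p is under 0.05 and its change is at least 1.5-fold. By this rule 4.23% of the 15284 tested genes were raised and 4.68% were lowered, and without the block 2.47% were raised and 2.11% lowered. Counts of a class are read against these shares. Counts without the block stand beside the others in brackets, because the samples numbered 2 deviated together only weakly. Unless stated otherwise, each gene named below was also called without the block. The groups did not overlap for 1155 of the 1361 called genes and for 3672 of the 15284 tested. A lack of overlap is thus common to called genes and describes the values only.

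Called genes were looked at by class. Of 3551 tested protein-coding genes placed in a class of regulators, receptors, secreted, surface, transport or other intracellular proteins, 8.03% were raised and 9.27% lowered, against 3.38% and 3.51% of the 9892 in no class. Of receptors 11.4% were raised and 12.2% lowered, of secreted proteins 10.7% and 15.6%, and of channels and transporters 10.4% and 7.05%. Ribosomal proteins had no called gene among 78 tested, with or without the block. Among 115 cell cycle genes 3 were called (2 without the block), and among 131 chromatin regulators 3 (1 without the block). These shares describe the lists and were not tested against each other.

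**Figure D1:**
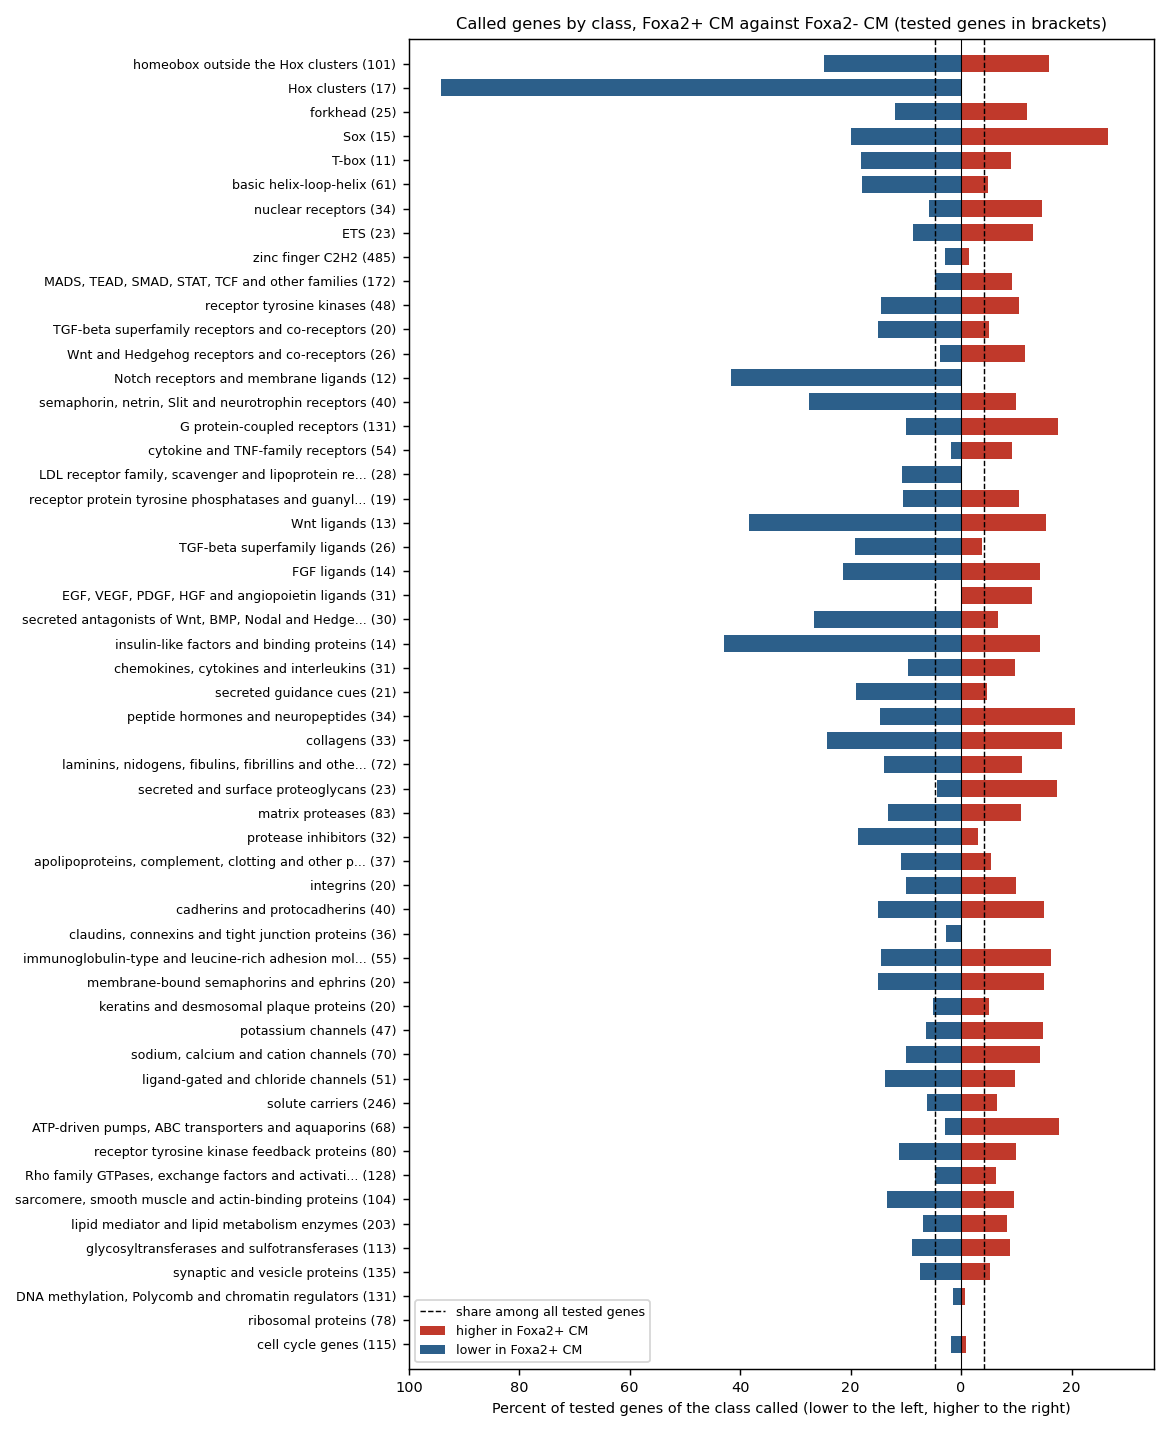
Share of tested genes called in Foxa2+ CM against Foxa2- CM, for each class with at least 10 tested genes (number in brackets). Red bars to the right are raised genes and blue bars to the left lowered genes, in percent, and dashed lines mark the shares over all tested genes (4.23% and 4.68%); the Hox clusters lie farthest to the left and ribosomal proteins have no bar.

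Of 1218 transcription factor genes, 952 were tested, and 59 were raised and 86 lowered (41 and 43 without the block). Homeobox genes, which pattern the body axis and its organs, made up much of this. Outside the Hox clusters 16 of 101 were raised and 25 lowered (11 and 13 without the block). Within the Hox clusters, whose genes are switched on in order along the body axis, 16 of 17 tested genes were lowered and none was raised, with a median log2FC of -2.91, against -0.00059 over all tested genes. Without the block 9 Hox genes were lowered. Another 21 of the 38 Hox genes had too few counts to test. The expression filter keeps a gene that has enough counts in a single group, so some Hox genes were tested through Foxa2- CM alone. Hoxa10, for example, had 2, 2 and 7 counts in Foxa2+ CM and 18, 15 and 82 in Foxa2- CM. The filter therefore bears on the share of lowered Hox genes and on their median. Hoxd9 (chromosome 2, 74697727 to 74700208, plus strand) stood at 0.525, 0.763 and 2.12 CPM in Foxa2+ CM and at 5.54, 6.68 and 18.8 CPM in Foxa2- CM. It was highest in replicate 3 of both groups, and the groups did not overlap (log2FC -3.18 ± 0.20, adjusted p = 1.39e-06). Hoxd1, of the same cluster, fell as well (log2FC -1.63), but not without the block (adjusted p = 0.0797).

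The Cdx genes, caudal-type homeobox factors that act on the Hox clusters and on formation of the posterior body, moved in the same direction. Cdx2 (ENSMUSG00000029646.3, chromosome 5, 147300805 to 147307270, minus strand) stood at 2.70, 4.40 and 13.5 CPM in Foxa2+ CM and at 41.0, 53.6 and 79.5 CPM in Foxa2- CM. The levels again rose in replicate 3 of both groups, and the lowest Foxa2- CM sample lay above the highest Foxa2+ CM sample (log2FC -3.17 ± 0.19, adjusted p = 1.06e-06). Cdx1 fell from 11.7 ± 6.32 to 1.76 ± 0.498 CPM (mean ± SD, n = 3 each, as for all values of this form). Gbx2, a homeobox factor of the posterior streak and later of the hindbrain border, fell from 8.80 ± 1.68 to 2.01 ± 1.10 CPM. Its relative Gbx1 went the other way, at 28.8, 24.2 and 17.3 CPM in Foxa2+ CM against 11.8, 8.05 and 5.81 CPM in Foxa2- CM (log2FC 1.47 ± 0.12, adjusted p = 8.56e-06). Both genes separated the groups in every sample, in opposite directions.

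Other raised homeobox genes were Dbx2 (6.33 ± 0.754 against 2.26 ± 1.22 CPM), known from neural tube patterning, and Zfhx4 (8.52 ± 3.02 against 2.95 ± 0.659 CPM), a large zinc finger and homeodomain protein. Pax2, a paired-box factor of kidney and midbrain, stood at 14.9, 21.5 and 34.5 CPM in Foxa2+ CM and 4.36, 4.59 and 11.4 CPM in Foxa2- CM, and it passed with the block (log2FC 1.83, adjusted p = 6.13e-06) but not without it (adjusted p = 0.0509). The pluripotency factor Nanog (chromosome 6, 122707489 to 122714633, plus strand) was at 5.10, 6.22 and 6.59 CPM in Foxa2+ CM and at 36.1, 35.7 and 24.2 CPM in Foxa2- CM. The groups were well apart, with a log2FC of -2.39 ± 0.16 (adjusted p = 2.07e-06). Prdm14, another factor of the pluripotent state, and Sox2 were also lowered (log2FC -1.81 and -0.89), while Esrrb, a nuclear receptor of naive pluripotent cells, was raised with the block alone (1.37, adjusted p = 0.0843 without it). Lhx1, a LIM homeobox factor of the anterior streak, fell from 121 ± 60.5 to 38.7 ± 17.03 CPM, in each same-numbered pair, and lost its call without the block (adjusted p = 0.0904).

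Sox factors, which share the DNA-binding domain of the sex-determining gene, had 4 raised and 3 lowered genes among 15 tested (4 and 2 without the block). Raised were Sox3 (29.6 ± 3.48 against 11.2 ± 2.41 CPM), a factor of the epiblast and neural plate, Sox17 (24.1 ± 4.15 against 5.58 ± 2.91 CPM), known from endoderm and endothelium, Sox6 and Sox21. The last 2 had means of no more than 2.00 CPM in either group. Lowered were Sox2, Sox8 and Sox10, of which Sox10 lost its call without the block (adjusted p = 0.251). Among basic helix-loop-helix factors, 3 of 61 tested genes were raised and 11 lowered (2 and 7 without the block). Bhlhe22 was at 15.2, 16.1 and 17.8 CPM in Foxa2+ CM and 53.4, 60.7 and 57.7 CPM in Foxa2- CM, with little spread in either group (log2FC -1.80 ± 0.08, adjusted p = 1.76e-07). Hand1, a factor of lateral plate, extraembryonic and first heart field mesoderm, stood at 55.8, 69.3 and 117 CPM against 152, 179 and 169 CPM (log2FC -1.10 ± 0.14, adjusted p = 0.000192). Tfeb, a regulator of lysosome genes, and Id4, an inhibitor of this factor family, were raised (log2FC 0.93 and 0.92).

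The remaining families gave smaller counts. In the forkhead family 3 of 25 tested genes were raised, Foxa2 among them, and 3 lowered (3 and 1 without the block). Foxq1 rose from 19.5 ± 4.27 to 49.7 ± 14.7 CPM, and Foxf1, a forkhead factor of splanchnic and extraembryonic mesoderm, stood at 26.8, 41.0 and 79.6 CPM in Foxa2+ CM against 85.4, 102 and 132 CPM in Foxa2- CM. Foxf1 was lowered in each pair but not called without the block (adjusted p = 0.122). Pparg, a nuclear receptor that governs fat and lipid genes, rose from 15.1 ± 3.62 to 29.1 ± 6.49 CPM, and Pgr, the progesterone receptor, fell from 15.3 ± 2.12 to 7.36 ± 0.999 CPM. Of the ETS factors, Elf1 rose (log2FC 0.77) and Elf4 fell (-1.43). Erg, an ETS factor of endothelium, stood at 14.4, 17.7 and 15.7 CPM in Foxa2+ CM and at 1.12, 1.85 and 9.42 CPM in Foxa2- CM. The high value of Foxa2- CM replicate 3 goes with a wide standard error (log2FC 2.15 ± 0.41, adjusted p = 0.00331), and the call was lost without the block (adjusted p = 0.142). Zinc finger genes of the C2H2 type, the largest family, had 7 raised (1.44%) and 14 lowered (2.89%) genes of 485, with 5 each without the block and 15 and 12 without replicate 3. The most abundant raised one was Hivep2, at 169, 185 and 146 CPM against 69.0, 66.7 and 78.7 CPM (log2FC 1.21 ± 0.09).

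**Figure D2:**
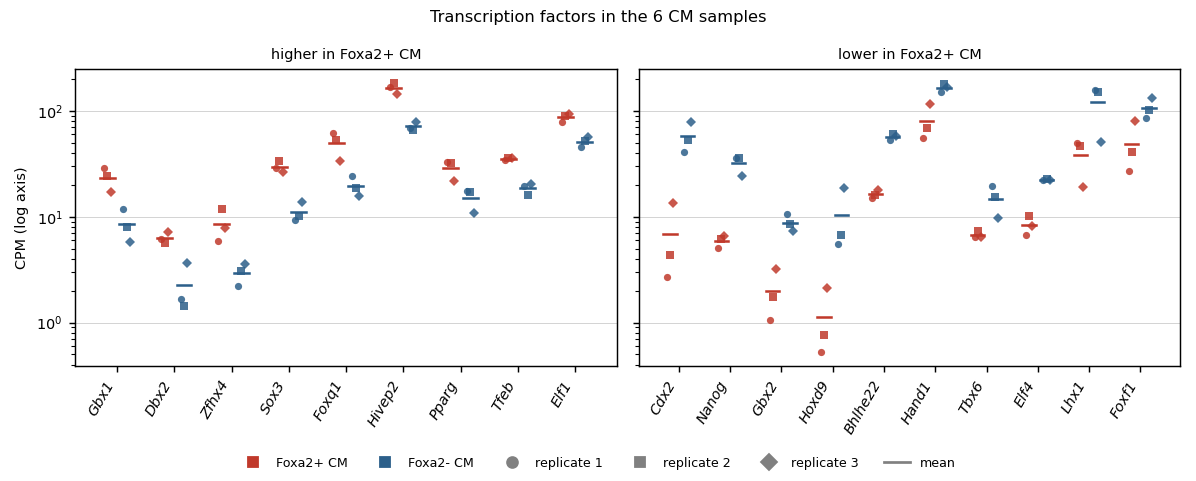
CPM of 19 transcription factor genes in the 6 CM samples, on a log axis, with raised genes on the left and lowered genes on the right. Each marker is a sample (circle, square and diamond for replicates 1, 2 and 3), lines are group means, and Lhx1 and Foxf1, unlike the other genes, were not called without the block.

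The sequence in front of the start site was inspected for the letters TGTTTAC or their reverse complement GTAAACA, a core that forkhead proteins are known to bind. RefSeq promoters of 300 bases (250 before and 50 after the start, build GRCm38.p6) were matched by symbol. The letters were in 2.45% of the 14101 promoters of tested genes, in 2.02% of those of raised genes and in 1.98% of those of lowered genes. These shares were not tested. A promoter was in the table for 144 of the named genes, and 5 of these held a match. Their stretches are shown because they are the places in named genes where the letters occur, with the letters in capitals, 5′ to 3′ on the gene's own strand. Of these genes, Limch1, an actomyosin regulator (log2FC -2.32), and Maml2, a Notch co-activator (log2FC 1.81), are not described further. A match describes the letters and is not evidence of binding.
Cdx2, lowered, chr5:147307259-147307313, minus strand, 40 bases before the start: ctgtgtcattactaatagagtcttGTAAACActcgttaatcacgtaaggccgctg
Dlk1, lowered, chr12:109452712-109452786, plus strand, with matches 87 and 67 bases before the start: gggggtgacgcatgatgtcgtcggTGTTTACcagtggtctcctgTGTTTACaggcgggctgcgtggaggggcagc
Limch1, lowered, chr5:66857296-66857350, plus strand, 149 bases before the RefSeq start used, which lies inside the gene as GENCODE draws it: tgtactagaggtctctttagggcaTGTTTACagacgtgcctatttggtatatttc
Maml2, raised, chr9:13297709-13297763, plus strand, 225 bases before the start: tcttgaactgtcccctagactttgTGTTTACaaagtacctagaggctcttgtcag
Mgll, raised, chr6:88724162-88724201, plus strand, 241 bases before the start: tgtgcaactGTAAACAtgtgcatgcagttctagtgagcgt

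Of 1659 receptor genes, 377 were tested, most of the others being odorant and similar receptors with few or no counts. Of those tested, 43 were raised and 46 lowered (28 and 23 without the block). Receptors for Hedgehog and Wnt had 3 raised and 1 lowered gene among 26 (2 and 1 without the block). Hhip (chromosome 8, 79965851 to 80058006, minus strand), a surface protein that binds Hedgehog ligands and blocks them, was at 29.6, 33.2 and 25.8 CPM in Foxa2+ CM and at 8.91, 8.78 and 6.92 CPM in Foxa2- CM. Samples of a group lay close together, and log2FC was 1.85 ± 0.11 (adjusted p = 9.03e-07). Boc, a Hedgehog co-receptor that promotes the response, was lowered (33.7 ± 4.37 against 51.6 ± 5.58 CPM). Reck, a membrane-anchored protease inhibitor and Wnt co-receptor, stood at 234.8, 237.5 and 236.6 CPM in Foxa2+ CM against 109, 122 and 156 CPM (log2FC 0.88 ± 0.09, adjusted p = 3.63e-05).

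Receptor tyrosine kinases, which bind growth factors at the surface, had 5 raised and 7 lowered genes among 48 tested (3 and 5 without the block). The raised genes were Met, Egfr, Ltk, Erbb3 and Epha3, with log2FC between 0.81 (Erbb3) and 1.06 (Met), and the last 2 named lost their calls without the block. Ror2, a receptor for Wnt5a, was at 5.10, 8.22 and 10.49 CPM in Foxa2+ CM and at 38.6, 36.1 and 38.8 CPM in Foxa2- CM (log2FC -2.26 ± 0.16, adjusted p = 2.88e-06). Ephb2, a receptor for ephrins that keeps cell groups apart, was at 36.3, 42.3 and 43.3 CPM against 85.3, 91.7 and 97.8 CPM (log2FC -1.17 ± 0.06, adjusted p = 4.74e-07). The groups were far apart for both genes, and Ror2 varied more within Foxa2+ CM than within Foxa2- CM. Fgfr2, a fibroblast growth factor receptor, behaved otherwise, at 6.59, 14.9 and 52.7 CPM in Foxa2+ CM and 47.3, 59.5 and 137 CPM in Foxa2- CM. Replicate 3 was the highest in both groups, so that the groups overlapped, although Fgfr2 was lower in Foxa2+ CM in each pair (log2FC -1.90, adjusted p = 2.08e-05, and adjusted p = 0.22 without the block).

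Notch receptors and their membrane ligands, through which neighbouring cells signal, had 5 lowered and no raised gene among 12 tested, and these 5 were also lowered without the block. They were the ligands Dll1, Dll3 and Jag1 and the related proteins Dner and Dlk1. Jag1 was at 7.79, 9.80 and 12.4 CPM in Foxa2+ CM and at 27.2, 26.7 and 34.5 CPM in Foxa2- CM (log2FC -1.56 ± 0.11, adjusted p = 3.33e-06). Dlk1 fell from 25.6 ± 1.96 to 8.01 ± 1.28 CPM, and Dll3 from 20.8 ± 11.05 to 5.58 ± 0.711 CPM. None of the called genes was a Notch receptor; Notch1 stood at 92.1 ± 17.8 CPM against 90.3 ± 21.1 CPM (adjusted p = 0.854). Of TGF-beta superfamily receptors and co-receptors, Tgfbr3 (betaglycan) rose from 24.1 ± 3.94 to 52.9 ± 6.43 CPM, while Acvrl1, a type I receptor of endothelium, fell from 18.2 ± 6.71 to 4.78 ± 2.12 CPM. Tdgf1, the Nodal co-receptor Cripto, was lowered with the block (log2FC -1.12) and had an adjusted p of 0.0529 without it.

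Guidance receptors, which steer migrating cells and axons, had 4 raised and 11 lowered genes among 40 tested (4 and 5 without the block). Raised were Ngfr, the low-affinity neurotrophin receptor (25.4 ± 5.67 against 9.77 ± 2.96 CPM), Dscam (25.6 ± 2.75 against 11.01 ± 2.06 CPM), Lrig3 and Flrt3 (log2FC 0.60, and 0.53 without replicate 1, under 1.5-fold). Unc5c, a netrin receptor, had the lowest log2FC of the receptors that the naming rule picked. It stood at 7.49, 15.7 and 77.6 CPM in Foxa2+ CM and at 99.2, 142 and 300 CPM in Foxa2- CM. The spread within groups was wide, and replicate 3 was the highest of each (log2FC -2.74 ± 0.23, adjusted p = 9.36e-06, and adjusted p = 0.122 without the block). G protein-coupled receptors had 23 raised and 13 lowered genes among 131 tested, and 13 and 3 without the block. Those that the naming rule picked lost their calls without the block, except Adgrb1, which fell from 5.32 ± 0.894 to 1.86 ± 0.579 CPM. They were Cnr1, a cannabinoid receptor, and Calcrl, a receptor for calcitonin-type peptides, both raised, and the calcium-sensing receptor Casr, lowered (adjusted p of 0.0507, 0.209 and 0.0741 without the block). Cytokine receptors had 5 raised and 1 lowered gene among 54 (4 and none without the block), with Il1rap, the shared chain of the interleukin-1 receptors, at 38.3, 44.1 and 35.8 CPM against 20.2, 16.7 and 12.8 CPM (log2FC 1.26 ± 0.11) and Cntfr, the ciliary neurotrophic factor receptor, raised as well (0.97).

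**Figure D3:**
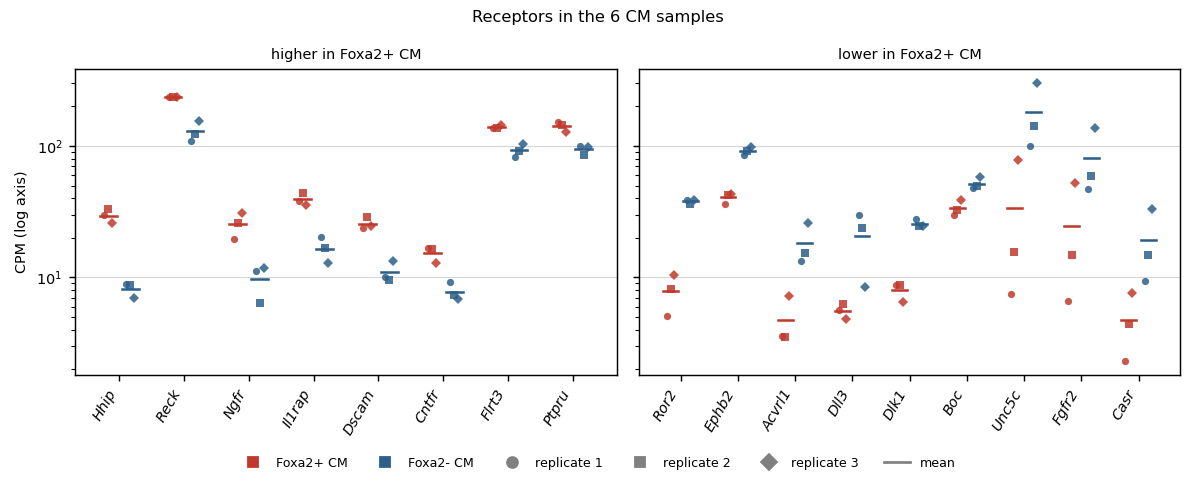
CPM of 17 receptor genes in the 6 CM samples, on a log axis, with raised genes on the left and lowered genes on the right. Markers are samples (circle, square and diamond for replicates 1, 2 and 3) and lines group means; Ephb2, Hhip and Dlk1 keep their samples close together, whereas Unc5c, Fgfr2 and Casr climb in replicate 3 of both groups.

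Secreted proteins had 53 raised and 77 lowered genes among 494 tested of 992 (25 and 38 without the block). Wnt ligands had 2 raised and 5 lowered genes among 13 (2 and 2 without the block). Wnt5a, a ligand of the non-canonical branch, was at 104, 128 and 183 CPM in Foxa2+ CM and at 227, 268 and 269 CPM in Foxa2- CM (log2FC -0.91 ± 0.10, adjusted p = 6.53e-05). Wnt2, a ligand of early cardiac and lung mesoderm, went the other way, at 77.4, 75.4 and 76.4 CPM against 38.8, 35.3 and 41.3 CPM (log2FC 0.99 ± 0.07, adjusted p = 1.96e-06). Its relative Wnt2b was raised too (log2FC 0.72). Wnt4, lowered with the block, had an adjusted p of 0.133 without it. The ligand Wnt5a and its receptor Ror2 were thus both lower, and Wnt2 and Wnt2b both higher, in Foxa2+ CM.

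TGF-beta superfamily ligands had 5 lowered genes and 1 raised gene among 26 tested (3 and none without the block). Bmp7, a bone morphogenetic protein, was at 35.4, 46.1 and 60.4 CPM in Foxa2+ CM and 98.2, 112 and 120 CPM in Foxa2- CM (log2FC -1.24 ± 0.08, adjusted p = 2.16e-06). Lefty2, an inhibitor of Nodal, fell from 30.6 ± 9.50 to 13.3 ± 1.71 CPM. The raised ligand, Gdnf, was called with the block alone. FGF ligands were called in both directions. Fgf15 was at 5.77, 6.93 and 16.5 CPM against 38.2, 38.6 and 37.7 CPM (log2FC -2.03 ± 0.22), and Fgf5, a ligand of the epiblast, was at 58.6, 51.95 and 27.9 CPM against 24.9, 20.4 and 10.87 CPM. The Fgf5 samples of number 3 were lowest in both groups, so its call (log2FC 1.31, adjusted p = 1.22e-06) was lost without the block (adjusted p = 0.0709). Secreted antagonists of Wnt, BMP, Nodal and Hedgehog had 2 raised and 8 lowered genes among 30 (2 and 3 without the block). Frzb, which binds Wnt proteins, stood at 4.95, 5.05 and 4.64 CPM in Foxa2+ CM against 37.5, 32.9 and 12.6 CPM, whereas its family member Sfrp5 rose from 3.16 ± 1.15 to 8.27 ± 0.557 CPM. Kcp, a modulator of BMP signalling, was also raised, at 117, 118 and 121 CPM against 53.9, 35.7 and 67.9 CPM.

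Insulin-like factors and their binding proteins had 6 lowered and 2 raised genes among 14 tested (5 and none without the block). Igf2, the main insulin-like growth factor of the embryo, stood at 109, 133 and 180 CPM in Foxa2+ CM against 227, 299.5 and 287 CPM (log2FC -0.97 ± 0.09, adjusted p = 2.16e-05). Igfbp3, which binds it in the extracellular space, was at 7.72, 10.2 and 6.42 CPM against 30.8, 35.03 and 27.6 CPM (log2FC -1.95 ± 0.11, adjusted p = 8.22e-07). Igfbp5 and the binding-protein protease Pappa were raised with the block, and their adjusted p without it was 0.0509 and 0.0736. The groups of Igf2 and of Igfbp3 did not overlap. A class of EGF, VEGF, PDGF, HGF and angiopoietin ligands, which also holds growth factors of other families, had no lowered gene among 31. Its 4 raised genes were Angpt2 and, from other families, Csf1, Ptn and Ntf3, and none of the 4 was called without the block. The chemokine Cxcl12 fell from 9.15 ± 2.43 to 1.84 ± 0.676 CPM and the peptide Apln, a ligand in early mesoderm and vessels, from 13.2 ± 5.24 to 4.73 ± 0.522 CPM. Peptide hormones had 7 raised and 5 lowered genes among 34 tested (5 and 1 without the block). Among the raised ones were Trh, the thyrotropin-releasing hormone (35.996 ± 2.66 against 19.7 ± 4.30 CPM), and the tachykinin Tac2 (5.49 ± 0.438 against 1.75 ± 0.415 CPM).

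Collagens, the fibrous proteins of the matrix, had 6 raised and 8 lowered genes among 33 tested (5 each without the block). Col14a1 (chromosome 15, 55307750 to 55520803, plus strand), a collagen that sits on the surface of fibrils, was at 97.8, 95.7 and 81.6 CPM in Foxa2+ CM and 20.1, 18.2 and 22.4 CPM in Foxa2- CM (log2FC 2.17 ± 0.09, adjusted p = 1.76e-07). Col12a1 was at 29.2, 40.5 and 36.7 CPM against 4.17, 4.59 and 9.18 CPM (log2FC 2.57 ± 0.18, adjusted p = 2.70e-06). Col4a5 and Col4a6, basement membrane collagens that lie head to head on chromosome X, rose from 100.2 ± 38.5 to 211 ± 24.6 CPM and from 97.4 ± 28.7 to 188 ± 19.9 CPM. Col9a1, a cartilage collagen, was at 1.95, 2.52 and 3.73 CPM against 18, 23.3 and 33.8 CPM (log2FC -3.19 ± 0.14, adjusted p = 1.76e-07). Col26a1 was lowered too (log2FC -2.52). Col1a1, the main fibrillar collagen, was at 23.3, 30.9 and 101 CPM against 79.9, 104 and 278 CPM. Replicate 3 was again highest in each group, the groups overlapped, and the call (log2FC -1.64, adjusted p = 2.36e-07) was lost without the block (adjusted p = 0.22).

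Among enzymes that remodel the matrix, 9 of 83 were raised and 11 lowered (4 and 7 without the block). Adamts15 was at 33.6, 34.3 and 18.9 CPM in Foxa2+ CM against 8.41, 8.70 and 6.57 CPM (log2FC 1.84 ± 0.12), and Adamts8 was raised as well (1.69). The groups did not overlap for either gene. Adamts20 (log2FC -2.18) and the secreted serine protease Htra3 (-2.80) were lowered. The heparan sulfate proteoglycan Gpc4, a co-receptor for growth factors, rose from 6.33 ± 0.937 to 23.3 ± 8.597 CPM, and Thbs1 (thrombospondin) fell from 6.70 ± 1.45 to 2.65 ± 0.737 CPM. The matrix glycoproteins Lama3, a laminin chain, and Vwf, raised with the block, had an adjusted p of 0.105 and 0.218 without it.

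**Figure D4:**
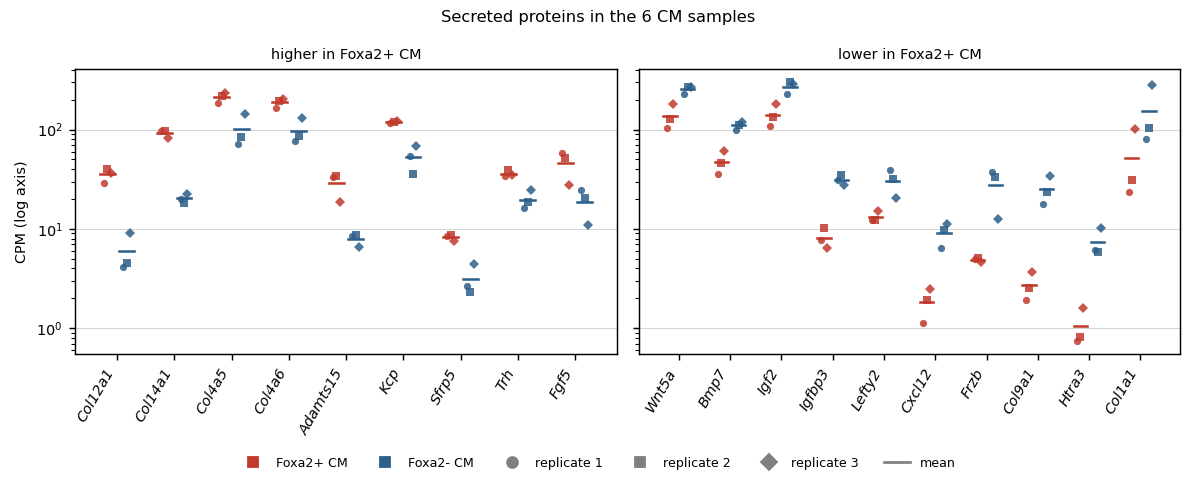
CPM of 19 genes for secreted proteins in the 6 CM samples, on a log axis, with raised genes on the left and lowered genes on the right. Markers are samples (circle, square and diamond for replicates 1, 2 and 3) and lines group means. Col14a1 and Igfbp3 separate the groups with little spread, and Kcp separates them with little spread in Foxa2+ CM only. Col1a1 and Fgf5 shift with replicate 3 in both groups.

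Surface proteins that hold cells together were called in equal number in both directions, with 21 raised and 21 lowered genes among 191 tested (17 and 13 without the block). The cadherins, calcium-dependent adhesion molecules whose exchange lets cell groups separate, had 6 of each among 40 (4 of each without the block). Cdh6 was at 64.7, 74.9 and 65.4 CPM in Foxa2+ CM and 16.3, 18.8 and 24.1 CPM in Foxa2- CM (log2FC 1.79 ± 0.10, adjusted p = 9.03e-07), and Cdh3 (P-cadherin) was at 5.62, 6.22 and 7.97 CPM against 23.9, 31.3 and 39.5 CPM (log2FC -2.25 ± 0.11, adjusted p = 3.88e-07). The groups were apart for both, in opposite directions. Pcdh17 and Pcdh12, protocadherins, were raised (log2FC 2.17 and 0.98). Of immunoglobulin-type adhesion molecules, Kirrel3 (17.1 ± 0.556 against 5.32 ± 0.984 CPM) and Igsf1 (45.2 ± 4.85 against 18.2 ± 0.223 CPM) rose and Igsf3 fell from 181 ± 28.2 to 81.2 ± 16.0 CPM. Cldn11, a tight junction protein, was the only called gene among 36 claudins, connexins and related proteins, where 5 were raised and 3 lowered without replicate 3 (0.816 ± 0.783 against 7.34 ± 3.89 CPM).

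Channels and transporters were raised in 50 and lowered in 34 of 482 tested genes, and in 33 and 11 without the block. Pumps, ABC transporters and aquaporins had 12 raised and 2 lowered genes among 68 (9 and 1 without the block). Atp1b1, a beta subunit of the sodium pump, which keeps sodium low in cells, was at 47.1, 49.7 and 47.0 CPM in Foxa2+ CM and 11.8, 11.2 and 15.7 CPM in Foxa2- CM (log2FC 1.89 ± 0.11, adjusted p = 8.84e-07). Fxyd2, the gamma subunit that tunes the pump, was at 32.9, 33.5 and 34.1 CPM against 6.66, 8.54 and 12.96 CPM (log2FC 1.85 ± 0.15, adjusted p = 7.80e-06). Atp1b2, another beta subunit, also rose (log2FC 0.72), and it was named after its values were seen.

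Voltage-gated and other cation channels had 10 raised and 7 lowered genes among 70 tested (5 and 2 without the block). Scn4a, the sodium channel of skeletal muscle, was at 142, 152 and 157 CPM in Foxa2+ CM against 44.8, 45.1 and 63.3 CPM (log2FC 1.57 ± 0.08, adjusted p = 5.17e-07). It was at 0.932 and 2.26 CPM in endoderm and at 7.97 and 23.7 CPM in Flk1+ high cells, in a normalization of all 10 samples. Trpv2, a cation channel, rose from 7.38 ± 0.319 to 20.8 ± 1.05 CPM. Potassium channels had 7 raised and 3 lowered genes among 47 (4 and 1 without the block), with Kcnmb1, a subunit of the calcium-activated potassium channel of smooth muscle, at 19.6 ± 4.22 against 6.09 ± 3.25 CPM. The chloride channel Ano1 was lowered (log2FC -2.69). Among 246 solute carriers 16 were raised and 15 lowered, and 13 and 4 without the block. Slc24a3, which exchanges sodium for calcium and potassium, was at 46.2, 52.7 and 50.6 CPM against 9.22, 8.46 and 15.5 CPM (log2FC 2.18 ± 0.14, adjusted p = 1.85e-06). Slc5a3, the inositol transporter, and Slc6a12, the betaine transporter, both carriers of osmolytes, were raised (log2FC 0.81 and 2.33).

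Inside the cell, contractile and cytoskeletal proteins had 10 raised and 14 lowered genes among 104 tested (5 and 9 without the block). The actins Actc1, of cardiac muscle, and Acta2, of smooth muscle, were both low and lower in Foxa2+ CM, at 1.13 ± 0.264 against 7.51 ± 1.29 CPM and at 1.95 ± 0.459 against 8.84 ± 1.19 CPM. Their proteins are near-identical, and how far reads shared between the 2 genes affect both values was not measured. Mgll, the lipase that breaks down the endocannabinoid 2-arachidonoylglycerol, was at 46.2, 51.5 and 44.6 CPM in Foxa2+ CM and 14.0, 13.05 and 16.9 CPM in Foxa2- CM (log2FC 1.69 ± 0.11, adjusted p = 1.42e-06). Aldh1a2, the main retinoic acid-producing enzyme of the early embryo, fell from 9.45 ± 3.28 to 2.30 ± 1.15 CPM. Dock8, an exchange factor for the GTPase Cdc42, was at 91.6, 99.1 and 99.1 CPM against 35.9, 31.1 and 44.5 CPM (log2FC 1.38 ± 0.09). Arhgap36, known as an activator of the Hedgehog pathway, rose from 61.7 ± 6.75 to 123.8 ± 1.76 CPM, and Rgs16, which shortens G protein signals, from 18.7 ± 1.70 to 49.2 ± 2.39 CPM.

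Of the protein-coding genes placed in no class, the kinase Tec rose from 4.05 ± 0.472 to 19.0 ± 3.58 CPM, and Mbp, a gene for the myelin basic protein that also gives a wider-expressed product, from 14.9 ± 4.77 to 56.6 ± 6.33 CPM. Cmah, an enzyme of sialic acid synthesis, was raised as well (log2FC 2.41). Cpxm2, a secreted carboxypeptidase-like protein, was at 3.82, 4.58 and 4.36 CPM in Foxa2+ CM and at 28.6, 29.6 and 20.9 CPM in Foxa2- CM (log2FC -2.61 ± 0.15, adjusted p = 7.33e-07). The kinesin Kif26b, which acts in the Wnt5a and Ror2 branch, fell with a log2FC of -2.48. The groups did not overlap for these 5 genes, as for most called genes.

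Levels in the other populations, normalized over all 10 samples, place these genes. Of the 646 raised genes, 22.9% had a higher mean in endoderm than in either CM group and 56.8% a lower one, against 43.0% and 44.4% of all tested genes. Of the 715 lowered genes, 46.7% stood higher in endoderm than in either CM group. In Flk1+ high cells 26.9% of the raised and 20.8% of the lowered genes had a higher mean than in either CM group, against 44.6% of all tested genes. Among the named genes, Foxq1 (71.1 and 118 CPM), Gpc4 (129 and 224 CPM) and Trh (202 and 205 CPM) were raised in Foxa2+ CM and higher still in endoderm, whereas Slc24a3 (0.745 and 1.17 CPM), Fxyd2 (0.186 and 0.0837 CPM) and Mgll (0.0932 and 0.669 CPM) were at 1.17 CPM or less there. Nanog, Cxcl12, Frzb and Cdh3, lowered in Foxa2+ CM, were between 58.0 and 162 CPM in the endoderm samples. These shares compare means that the call itself has set apart in CM, and they were not tested.

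Markers of other cell types that the sort could hold were looked at as lists, in the normalization of all 10 samples. Definitive and gut endoderm markers summed to between 600.3 and 787 CPM in Foxa2+ CM and between 608 and 702 CPM in Foxa2- CM, against 2823 and 3165 CPM in endoderm. Of 26 tested, 5 were raised and 3 lowered (5 and 1 without the block). Sox17, Trh and Sox21 were among those raised, along with Foxa2, while Cer1, a defining gene of anterior endoderm, stood at 5 to 23 counts in each CM sample, and Foxa1, Ripk4 and Esrp1 were lowered, Foxa1 and Esrp1 with the block alone. Visceral endoderm markers had no called gene among 11 tested, with or without the block, but their median log2FC of 0.53 was the highest of the 13 lists. They summed to 213, 229 and 214 CPM in Foxa2+ CM replicates 1, 2 and 3 and to 157, 173 and 226 CPM in Foxa2- CM. The sum was thus higher in Foxa2+ CM in the pairs numbered 1 and 2 and lower in the pair numbered 3. Haemato-endothelial markers summed to 599.5, 633 and 859 CPM in Foxa2+ CM replicates 1, 2 and 3 and to 463, 464 and 899.8 CPM in Foxa2- CM, against 2814 and 3459 CPM in Flk1+ high cells. Replicate 3 of each group thus held the most, and in Foxa2- CM the gap was the wider. Of 22 tested, Lmo2 and Erg were raised and Pecam1 lowered, and Lmo2 alone kept its call without the block. The part of these cells in the calls of endothelial genes such as Erg, Vwf, Calcrl and Pecam1 was not tested, and fewer cells of a type cannot be told apart from less RNA per cell in such samples.

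Several mesoderm lists had more lowered than raised genes. Of 19 tested markers of posterior lateral plate and extraembryonic mesoderm 10 were lowered and none raised (6 without the block), of 17 primitive streak markers 8 were lowered and none raised (4 without the block), and of 12 presomitic and paraxial markers 6 were lowered and 1 raised (5 and none without the block). The first list includes Hox genes and Hand1, and the second the Cdx genes and Lhx1, already described. As with the Hox genes, some lowered markers passed the expression filter through Foxa2- CM alone. Osr1, of the first list, had 1, 1 and 9 counts in Foxa2+ CM and 35, 28 and 166 in Foxa2- CM. Foxc1, of the paraxial list, had 4, 8 and 8 against 18, 24 and 27. The filter therefore bears on the shares of lowered markers too. The summed level of each of these lists was lower in Foxa2+ CM in each of the 3 same-numbered pairs, while the groups overlapped, at between 1210 and 1465 CPM in Foxa2+ CM against between 1388 and 1829 CPM in Foxa2- CM for the first list. Of the streak factors, Eomes (356 ± 49.3 against 349 ± 56.2 CPM) and Mixl1 (212 ± 27.6 against 233 ± 36.1 CPM) did not pass the test. Cardiac progenitor and first heart field markers had 4 raised and 5 lowered genes among 16, or 4 and 1 without the block. Second heart field markers had 2 and 7 among 17 (2 and 5 without the block), and differentiated cardiomyocyte markers 2 and 3 among 13 (1 and 3 without the block). The lists share lowered members, so their counts are not separate results. Hand2 and Osr1 are in the second heart field and posterior lateral plate lists, and Foxc1 and Aldh1a2 in the second heart field and paraxial lists. Of these, Hand2 was lowered with the block alone (adjusted p = 0.305 without it). Hand1 and Hand2 are in the first heart field and posterior lateral plate lists. Of pluripotency and epiblast markers, 3 of 17 were raised and 5 lowered (none and 3 without the block). The rest of the lists were called in no more than 2 genes in either direction.

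**Figure D5:**
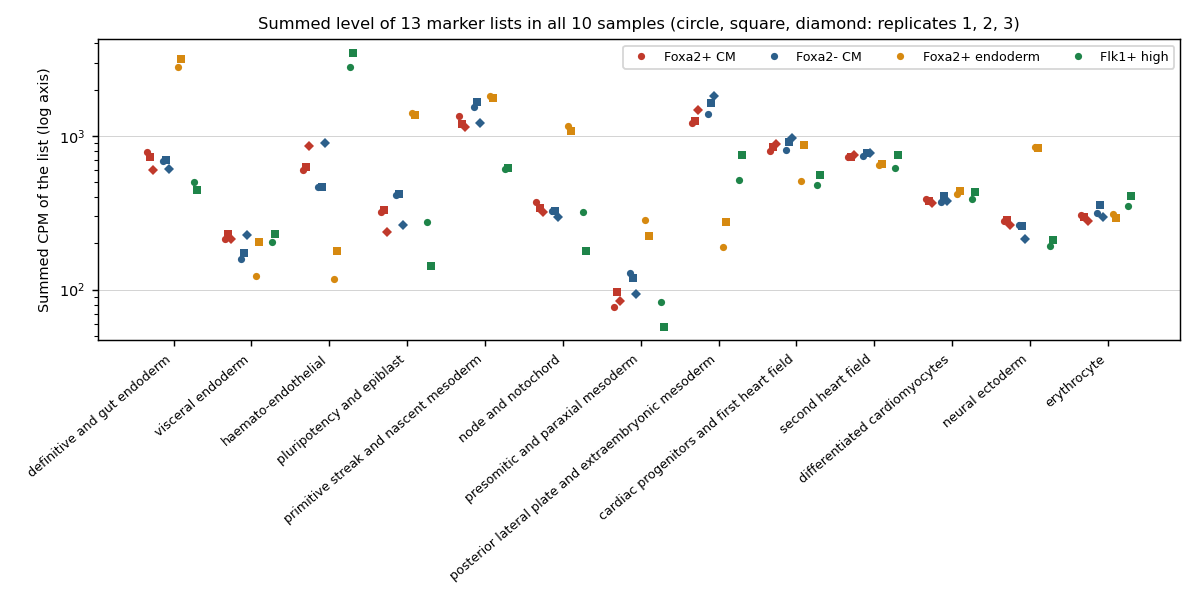
Summed CPM of 13 marker lists in all 10 samples, on a log axis, normalized together. Markers are samples, coloured by population and shaped by replicate; endoderm and Flk1+ high samples stand out for their own lists, and replicate 3 of both CM groups has the highest haemato-endothelial sum.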

How the data were processed

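RNA from the 10 sorted samples was sequenced as single-end reads from a kit that does not mark strand, so a gene and an overlapping antisense gene cannot be told apart. The authors aligned reads to mm10 with STAR 2.5.0a, discarded duplicates with Picard and tallied genes with HTSeq 0.6.0, and they deposited whole-number counts per gene without normalization. Removing duplicates without molecular identifiers can compress differences of abundant genes, and floors cover counting error only. Rows that name no gene were left out. Their sum came to between 63.5% and 72.25% of a file's total. No per-sample column of another series was present (0 columns).

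From these counts, edgeR 4.0.16 in R 4.3.3 gave TMM factors, its default expression filter and a quasi-likelihood test for the 6 CM samples. P-values were adjusted by the Benjamini-Hochberg procedure over all 15284 genes tested. Standard errors were derived from log2FC and the F statistic (the size of log2FC over the root of F). DESeq2 1.42.0, other size factors, no filter, no block and leaving out each replicate number were tried. Tables and figures used pandas 2.3.3 and matplotlib 3.10.9. The fits were tested on simulated data. Symbols and positions came from GENCODE M21 for the same build (37607 of 38924 identifiers matched).

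The replicate block comes from the numbers in the titles. Deviations from group means correlated at 0.520, 0.0964 and 0.618 for samples numbered 1, 2 and 3, so number 2 is below the limit of 0.1 set for pairing, and no source says that a number marks a shared culture.

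Genes were named by rule: among called genes that averaged 50 counts or more and moved in 1 direction in all 3 pairs, outside those that the study displayed, the largest fold changes per class (2 each way), per group of classes (6) and in no class (5), plus the 3 largest differences in CPM. In classes with 5 or fewer called genes in a direction, other members were named after their values were seen, as was Notch1. The members and lists were chosen with earlier results of these data known, and 3 misplaced symbols were removed from the lists after values were seen. Some results for items withheld from this text are not reported here.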

Additional observations from a re-analysis of the deposited data

How the results depend on the processing

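The replicate block mattered most. Without the block, 700 genes were called (378 raised and 322 lowered), 84 transcription factors (43 of them lowered), 51 receptors (28 and 23) and 63 secreted proteins (25 and 38). Of the 1361 genes called with it, 699 were also called without it. DESeq2 with the block called 919 genes (441 raised and 478 lowered), among them 26 raised receptors and 17 lowered channels and transporters. Without replicate 3, raised helix-loop-helix factors went from 3 to 5, receptor tyrosine kinases from 5 to 8, secreted antagonists from 2 to 6 and cell cycle genes from 1 to 3, and lowered potassium channels from 3 to 5. Lowered peptide hormones went from 5 to 3 without replicate 1, and raised contractile genes from 10 to 6 without replicate 1 and to 5 without replicate 2. The cause was not tested. The naming rule picked 198 genes, not all of them described here, and Foxa2, Kdr and Pdgfra were added to make 201. Of these, 57 lost their call without the block, 13 with DESeq2, 2 with DESeq2's size factors and 2 without the filter on low counts. Without replicates 1, 2 and 3, 8, 6 and 4 lost it. Of the genes named in the report, Erbb3 (log2FC 0.56 without replicate 1 and 0.65 without replicate 2), Gdnf (0.58 without replicate 2 and 0.57 without replicate 3) and Flrt3 were among these, and Foxa1, Sox10, Sox21, Ptn and Wnt2b also lost their call when at least 1 replicate number was left out. None of the 201 changed direction under these alternatives. Samples of different numbers correlated in their deviations between -0.594 and 0.338, and not every sample correlated best with its own number. With 3 samples a group, small changes at low counts could not be settled.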
